A study of Gallus gallus with 2 samples.

Results

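Solute carriers are membrane proteins that move amino acids, sugars, ions, metals, vitamins, nucleotides and lipids across the plasma membrane and the membranes of organelles. Most are driven by a gradient of the substrate itself or of sodium, protons or another exchanged solute, and families are numbered by sequence and named by substrate. In brain they load synaptic vesicles, clear transmitters from the extracellular space, feed mitochondria and carry nutrients across the blood-brain barrier. The probes described here are those of a chicken array whose deposited description contains the words solute carrier, in any letter case, or whose gene name starts with SLC and a digit. Of 165 such probes, 2 for glycine or glutamate transporter genes and 2 on chromosome Z were left out. The remaining 161 of 42034 probes carry 140 gene labels from 37 numbered families, on an array with 40231 distinct gene names or accessions. A label ending in "-like" was read from the array's description alone, as for 24 probes.

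Newly hatched Cobb chicks were trained for 1 h in a filial imprinting experiment, and dark-reared chicks served for comparison. Whole-brain RNA of 16 chicks per condition was combined into 4 pools of 8 chicks: trained males, trained females, dark-reared males and dark-reared females. There was 1 array for each sex, with the trained pool in Cy3 and the dark-reared pool in Cy5 and no dye swap. The direction of every ratio follows these dye labels, since the sample titles list the pools in the other order. Training differed from rearing in the dark in light and handling as well as in learning, and these cannot be told apart. Dye effects shared by both arrays cannot be told apart from training either. Since RNA came from whole brain, a lower level cannot be assigned to fewer cells of a type or to less RNA per cell.

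Both trained pools, in Cy3, had fewer probes clearly over background than both dark-reared pools, in Cy5. The share of all array probes clearly over background was 61.5% in trained males and 62.9% in trained females, against 66.4% and 66.5% in the dark-reared pools, and 0 probes were saturated. Of the 161 solute carrier probes, 129 passed the filter and were tested, which asked for a signal clearly over background, on each array, from the trained or the dark-reared pool. Of these, 120 had such a signal in all 4 pools. Each array gave a log2 ratio of the trained pool over the dark-reared pool, taken after background correction and loess normalization. A mean over the male and the female array is given with its SD (n = 2), and its adjusted p comes from limma with Benjamini-Hochberg adjustment over all 27372 probes tested. Levels are log2 intensities of each pool and are not set against those of another probe. The male and the female array served as replicates, which left 1 residual degree of freedom per probe. In limma the variance behind each p combined the spread between 2 arrays, a sex difference included, with a prior estimated over all probes tested. The prior had 5.06 degrees of freedom, so a p-value does not follow from the SD of its probe alone. The number of arrays limits the precision.

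Training and dark rearing differed modestly for the carriers. Of the 129 probes tested, 22 passed at an adjusted p of 0.05. This was 17.1% of the carriers, beside 17.5% of all probes tested. In the trained pools 10 probes were higher, which is 7.75% beside 6.31% of all probes, and 12 were lower, which is 9.3% beside 11.2%. The share of carriers called was therefore near that of the whole array. The median ratio of the carriers was 0.0020, beside -0.012 for all probes tested, and their quartiles were -0.085 and 0.11. No carrier reached a 1.5-fold difference on the male or the female array, where 1.3% and 0.964% of all probes did. The extremes were SLC25A16 at 0.691-fold and SLC39A12 at 1.35-fold. At an unadjusted p of 0.05, 45 carriers passed, or 34.9% beside 33.1% of all probes.

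The male and the female array gave the same sign for 99 of the 129 carriers, or 76.7%, beside 71.9% of all probes. Pearson's r between the arrays' ratios was 0.72 across the carriers and 0.67 across all probes. It is a description across probes that share both arrays and a dye orientation. The levels of the 2 trained pools and of the 2 dark-reared pools did not overlap for 85 of the 129 carriers, or 65.9%, beside 54.5% of all probes, and for all 22 that passed. The levels hold the same ratios as the test, so this is no separate evidence for the 22. Calls were rare among dim probes: 0 of 40 carriers in the lowest of 3 equal ranges of probes by level passed, 7 of 41 in the middle range and 15 of 48 in the highest. The whole array had the same gradient, with 1.96%, 19.4% and 31.2% called.

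The calls depended on how the arrays were processed. With a smaller background offset of 16, 3 carriers passed, SLC39A12 higher and SLC25A16 and a SLC19A3-like probe lower, and 3.41% of all probes did. With the scanner software's own processed signals 0 carriers passed in limma, where the smallest adjusted p was 0.261 and 25 carriers had an unadjusted p under 0.05. In those signals 20 of the 22 called probes kept the sign of their mean, and SLC43A3 and SLC39A9 did not. Of the 24 probes named below that did not pass, 9 changed sign there. Median centring in place of loess set the median of all unflagged array probes to 0 on each array, untested dim ones included. The median of all probes tested then lay at -0.34. Relative to that median, all 12 lower probes stayed below it, while of the 10 higher probes SLC39A3, SLC43A2 and a probe of SLC9A3R2 were above it. The other 7 higher probes lay below that median with median centring, so their directions given below hold after loess only. Of these, SLC35E3 (-0.35), SLC25A20 (-0.36), SLC39A12 (-0.36) and SLC27A4 (-0.36) lay close to the median. SLC37A2 (-0.44), SLC25A28 (-0.54) and SLC27A1 (-0.62) lay further below it.

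**Figure D1:**
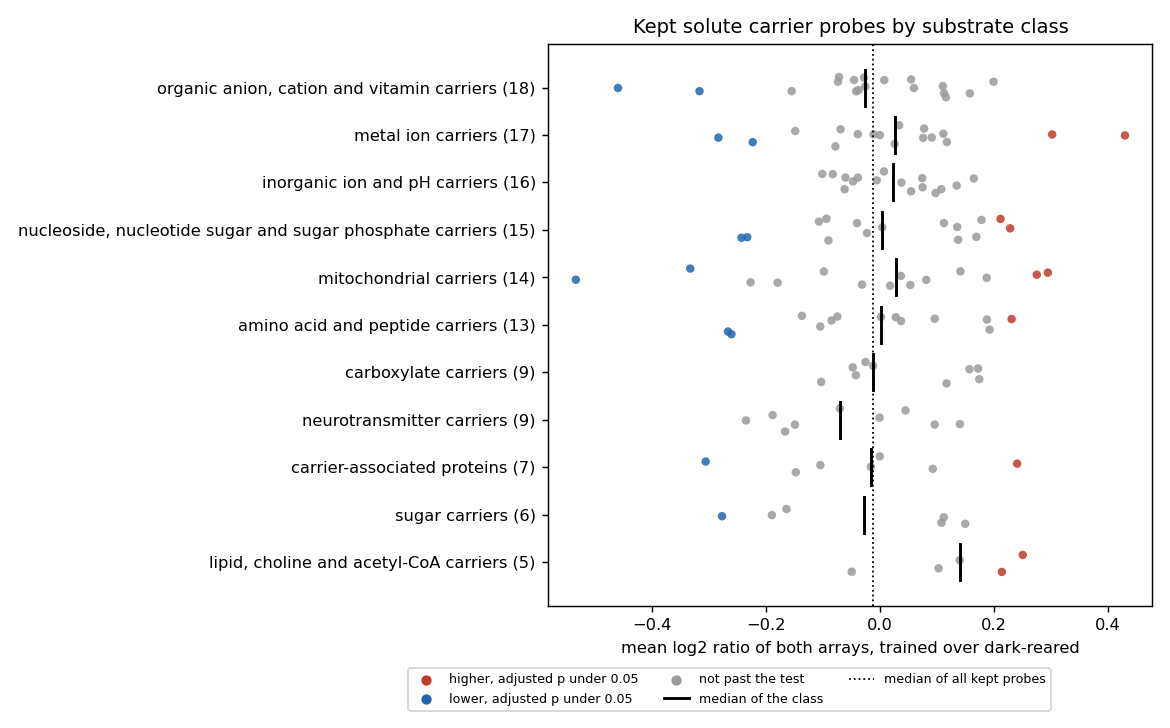
Mean log2 ratio of both arrays, trained over dark-reared, for the 129 solute carrier probes tested, by substrate class with the number of probes in parentheses. Red and blue points are the 10 higher and 12 lower probes past an adjusted p of 0.05 and grey points did not pass. Vertical bars are class medians and the dotted line is the median of all probes tested, -0.012. The class medians lie between -0.070 and 0.14.

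Metal ion carriers held the probe with the highest ratio. ZIP proteins of family 39 bring zinc and related metals into the cytoplasm, and ZnT proteins of family 30 take zinc out of it. Of 17 probes tested 2 were higher, 2 were lower and 13 did not pass, with a median of 0.026. The counts of this and every class below stand beside 6.31% higher and 11.2% lower among all probes tested. SLC39A12, a ZIP zinc importer that is prominent in brain, had levels of 11.86 in trained males and 11.85 in trained females, against 11.41 in dark-reared males and 11.44 in dark-reared females, at galGal2 chr2:18674896-18674955. Both trained pools were above both dark-reared pools by a similar amount. The ratios were 0.45 in males and 0.42 in females, with a mean of 0.43 ± 0.021 (SD, n = 2 arrays) and an adjusted p of 0.0097 in limma. A second SLC39A12 probe, at chr2:18700367-18700426, had ratios of 0.13 and 0.02 in males and females and did not pass, with a mean of 0.078 and an adjusted limma p of 0.403.

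SLC39A3, a zinc importer of the plasma membrane, had levels of 7.55 and 7.43 in trained males and females, against 7.13 and 7.24 in the dark-reared ones. The trained pools were above the dark-reared pools, and more so in males, where the ratio was 0.42 beside 0.19 in females. The mean was 0.30 ± 0.17 (SD, n = 2 arrays; adjusted limma p 0.0369). Among the lower probes, SLC30A7, which loads zinc into the Golgi apparatus, had levels of 7.18 and 7.02 in trained males and females, against 7.39 and 7.37 in the dark-reared ones. Its ratios were -0.21 and -0.36, with a mean of -0.28 and an adjusted limma p of 0.0287. In the processed signals it had -0.18. SLC39A9, a zinc importer of the secretory pathway, had levels of 12.41 and 12.38 in trained males and females, against 12.62 in both dark-reared pools. Its mean was -0.22 (adjusted limma p 0.038), but 0.065 in the processed signals. The largest ratio that did not pass was that of a SLC11A2-like probe for a divalent metal transporter, with a mean of -0.15 and an adjusted p of 0.108 in limma, but 0.35 in the processed signals.

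Mitochondrial carriers, all of family 25, exchange metabolites, nucleotides and cofactors across the inner mitochondrial membrane. Of 14 probes 2 were higher, 2 were lower and 10 did not pass, with a median of 0.027. SLC25A16, once described as the Graves disease carrier protein, had levels of 9.88 in trained males and 9.97 in trained females, against 10.41 in dark-reared males and 10.51 in dark-reared females, at chr6:9927199-9927258. Its ratios of -0.52 and -0.55 were the most negative among the carriers. The mean was -0.53 ± 0.015 (SD, n = 2 arrays; adjusted limma p 0.00818), and in the processed signals it was -0.14.

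SLC25A36, a carrier of pyrimidine nucleotides, had levels of 11.54 and 11.55 in trained males and females, against 11.86 and 11.90 in the dark-reared ones, at chr9:6889194-6889253. Its mean ratio was -0.33 ± 0.020 (SD, n = 2 arrays; adjusted limma p 0.0143), and -0.33 in the processed signals as well. SLC25A28, a mitoferrin that brings iron into mitochondria, had levels of 12.38 and 12.40 in trained males and females, against 12.09 in both dark-reared pools, at chr6:21284937-21284996. The trained pools were higher by nearly the same amount in males and females. The mean was 0.30 ± 0.017 (SD, n = 2 arrays; adjusted limma p 0.0186). SLC25A20, which exchanges carnitine and acylcarnitines for fatty acid oxidation, had levels of 9.63 and 9.58 in trained males and females, against 9.42 and 9.24 in the dark-reared ones. Its mean ratio was 0.28 (adjusted limma p 0.0302). SLC25A26, the carrier of S-adenosylmethionine, had -0.14 and -0.31 on the male and female arrays and missed the threshold, with an adjusted limma p of 0.0581, and its mean was 0.0021 in the processed signals. SLC25A4, an ADP/ATP exchanger, had 0.01 in males and 0.27 in females (adjusted limma p 0.25), and a mean of -0.052 in the processed signals.

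**Figure D2:**
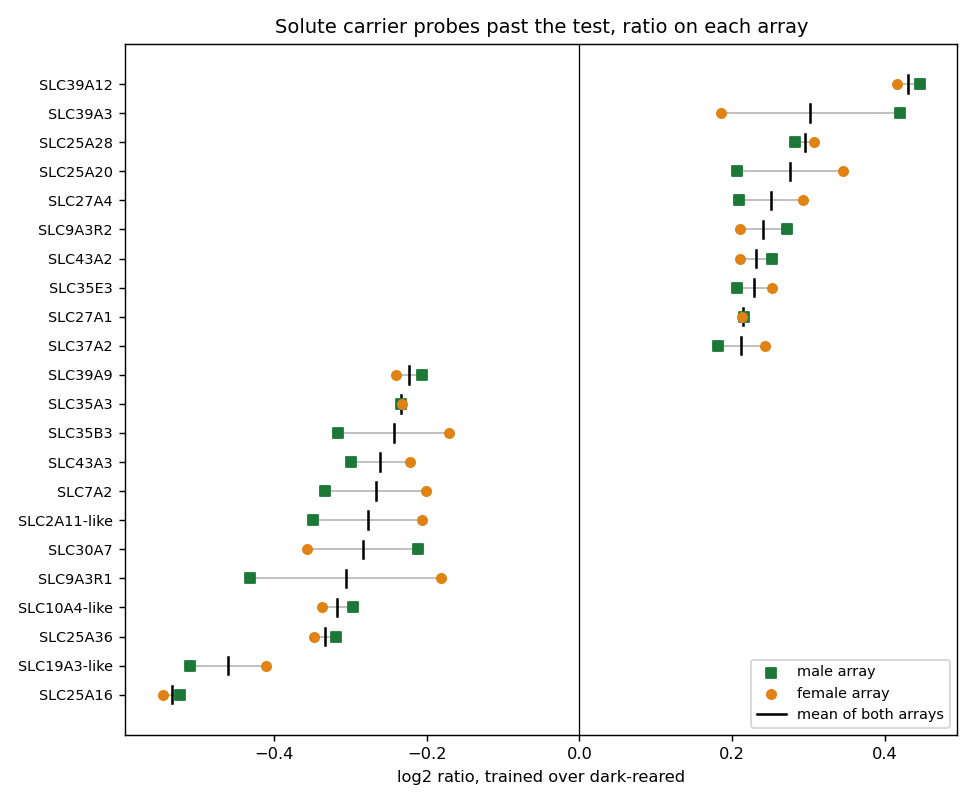
Log2 ratio, trained over dark-reared, on the male (squares) and the female (circles) array for each of the 22 solute carrier probes past an adjusted p of 0.05, with a bar at their mean, from the highest to the lowest. Arrays lie close for SLC39A12 (0.45 and 0.42) and SLC25A16 (-0.52 and -0.55) and far apart for SLC9A3R1 (-0.43 and -0.18) and SLC39A3 (0.42 and 0.19).

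Organic anion, cation and vitamin carriers formed the largest class tested, with 18 probes. None was higher, 2 were lower and 16 did not pass, beside 6.31% higher and 11.2% lower among all probes tested. The class median was -0.027. The lower probe with the larger size was labelled SLC19A3-like, for a thiamine transporter, at chr9:4137374-4137433. Its levels were 7.61 in trained males and 7.87 in trained females, against 8.12 in dark-reared males and 8.28 in dark-reared females, so the trained pools were below both dark-reared ones. The ratios were -0.51 and -0.41, with a mean of -0.46 ± 0.071 (SD, n = 2 arrays; adjusted limma p 0.0097). Neighbouring probes did not pass. In the processed signals the lower SLC19A3-like probe had -0.31, and the 2 neighbours had -0.23 and -0.090 in the order given next. One annotated as SLC19A3, at chr9:4134599-4134656, had a mean of -0.074, and a second SLC19A3-like probe at chr9:4149917-4149973 had 0.25 in males and -0.01 in females.

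The SLC10A4-like probe, for an orphan carrier of the bile acid family found on synaptic vesicles in mouse, had levels of 9.80 and 10.01 in trained males and females, against 10.10 and 10.35 in the dark-reared ones. Its ratios were -0.30 and -0.34, with a mean of -0.32 ± 0.029 (SD, n = 2 arrays; adjusted limma p 0.0161), and -0.10 in the processed signals. SLC23A2, a sodium-dependent vitamin C transporter, had 0.16 in males and 0.24 in females and did not pass (adjusted limma p 0.0561). SLCO1C1, which carries thyroxine, had 0.12 and 0.11 (adjusted limma p 0.199). It stands in a cluster of chromosome 1 with SLCO1B1 and a SLCO1A2-like probe, within 61770172 to 61845544 of galGal2, whose means were 0.055 and -0.16.

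Amino acid and peptide carriers gave 1 higher, 2 lower and 10 probes that did not pass among 13, with a median of 0.0020. SLC43A2, a facilitative transporter of large neutral amino acids, had levels of 6.97 and 7.04 in trained males and females, against 6.72 and 6.83 in the dark-reared ones. Its mean ratio was 0.23 ± 0.029 (SD, n = 2 arrays; adjusted limma p 0.0353). SLC7A2, which carries arginine and other cationic amino acids, had levels of 9.69 and 9.78 in trained males and females, against 10.02 and 9.98 in the dark-reared ones. The ratios were -0.33 in males and -0.20 in females, with a mean of -0.27 (adjusted limma p 0.032), and -0.35 in the processed signals.

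SLC43A3, known in human cells as a purine nucleobase transporter, had levels of 8.06 and 8.27 in trained males and females, against 8.36 and 8.49 in the dark-reared ones. Its mean was -0.26 (adjusted limma p 0.0279), but 0.14 in the processed signals. SLC7A5, the large neutral amino acid transporter of the blood-brain barrier, had -0.20 in males and -0.07 in females (adjusted limma p 0.167), and a mean of 0.021 in the processed signals. SLC38A4 had probes with means of 0.19 and -0.085, the first missing the threshold with an adjusted limma p of 0.0567.

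**Figure D3:**
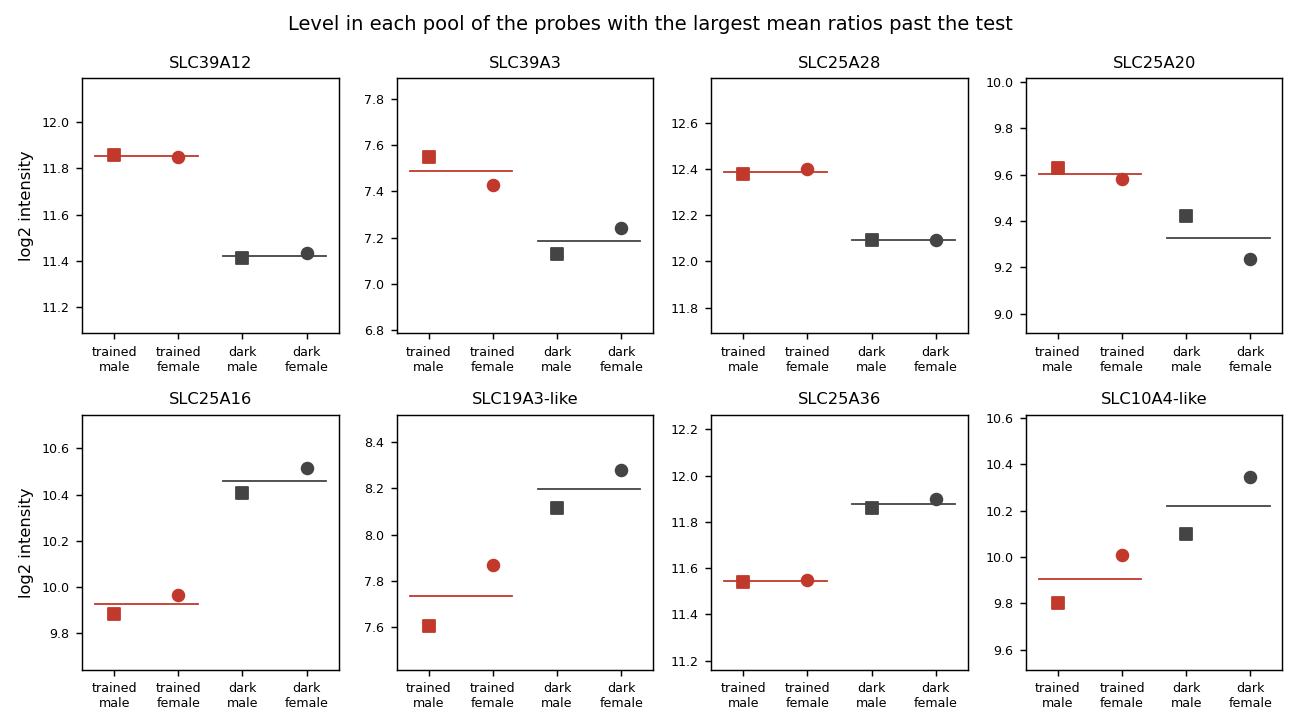
Log2 intensity in each of the 4 pools of 8 chicks for the 4 higher and 4 lower probes with the largest mean ratios past the test. Each panel has its own vertical axis, squares are males, circles are females and lines are the means of the 2 trained and the 2 dark-reared pools. The probes were chosen by their ratios, which the levels hold. In every panel the trained pools lie wholly above or wholly below the dark-reared pools, as for SLC39A12 with 11.86 and 11.85 against 11.41 and 11.44.

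Nucleotide sugar, nucleoside and sugar phosphate carriers supply the Golgi apparatus and the endoplasmic reticulum, and balance nucleosides across the plasma membrane. Of 15 probes 2 were higher, 2 were lower and 11 did not pass, with a median of 0.0042. SLC35E3, an orphan member of the nucleotide sugar family, had levels of 9.055 and 8.997 in trained males and females, against 8.85 and 8.75 in the dark-reared ones, and a mean of 0.23 (adjusted limma p 0.0364). SLC37A2, a sugar phosphate exchanger, had levels of 9.78 and 9.95 in trained males and females, against 9.60 and 9.71 in the dark-reared ones, and a mean of 0.21 (adjusted limma p 0.0461). SLC35B3, which carries the sulfate donor PAPS, had levels of 8.84 and 8.88 in trained males and females, against 9.16 and 9.05 in the dark-reared ones. Its mean was -0.24 (adjusted limma p 0.0428). SLC35A3, a carrier of UDP-N-acetylglucosamine, had levels of 7.96 and 7.92 in trained males and females, against 8.20 and 8.15 in the dark-reared ones. Its ratio was -0.23 on each array (adjusted limma p 0.0337), and the mean was -0.13 in the processed signals. SLC35E2B had the largest ratio that did not pass, with a mean of 0.18 (adjusted limma p 0.0939).

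Lipid, choline and acetyl-CoA carriers had the highest class median, 0.14 over 5 probes, of which 2 were higher and 3 did not pass. The class held 3 probes of family 27 and 2 of SLC33A1, at 0.10 and -0.050, and none of a choline carrier. Its median was the value of the second SLC27A4 probe. Both higher probes belong to family 27, whose proteins promote the uptake of long-chain fatty acids. SLC27A4 had levels of 9.37 and 9.34 in trained males and females, against 9.16 and 9.05 in the dark-reared ones, with a mean of 0.25 ± 0.059 (SD, n = 2 arrays; adjusted limma p 0.0315) and 0.14 in the processed signals. Its second probe, at chr17:5768624-5768844, had 0.14 on each array and did not pass (adjusted limma p 0.124). SLC27A1 had levels of 12.34 and 12.37 in trained males and females, against 12.12 and 12.16 in the dark-reared ones. Its ratios of 0.22 and 0.21 gave a mean of 0.21 (adjusted limma p 0.0415), but 0.031 in the processed signals.

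Sugar carriers gave 0 higher, 1 lower and 5 probes that did not pass among 6, with a median of -0.028. The SLC2A11-like probe, for a facilitative sugar transporter, had levels of 9.16 in trained males and 9.44 in trained females, against 9.51 in dark-reared males and 9.65 in dark-reared females. Its ratios were -0.35 and -0.21, with a mean of -0.28 (adjusted limma p 0.0302). SLC2A1, the GLUT1 glucose transporter of brain capillaries, had levels of 10.93 and 10.91 in trained males and females, against 11.08 and 11.15 in the dark-reared ones. The pools did not overlap, and the mean of -0.19 did not pass (adjusted limma p 0.0684).

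Neurotransmitter carriers retrieve released transmitters or load them into vesicles. In this small class 0 of 9 probes passed in either direction, beside 17.5% of all probes tested. Their median was -0.070, with -0.13 in males and -0.053 in females. Of the 6 probes of family 6, which holds the plasma membrane transporters of monoamines and some amino acids, the median was -0.16. SLC6A2, the noradrenaline transporter, had levels of 7.01 and 7.05 in trained males and females, against 7.35 and 7.18 in the dark-reared ones, and its mean of -0.24 did not pass (adjusted limma p 0.0619). SLC6A15, a neutral amino acid transporter of neurons, had -0.32 in males and -0.05 in females. SLC18A2, which loads monoamines into vesicles, had 0.22 in males and 0.06 in females, and SLC17A6, which loads glutamate, had 0.17 and -0.08. None of these passed.

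Inorganic ion and pH carriers, with 16 probes, and carboxylate carriers, with 9 probes, had 0 calls in limma, beside 17.5% of all probes tested. The median of the ion carriers was 0.023 and their range was -0.10 to 0.17. SLC8A1, a sodium-calcium exchanger, had the largest mean, with 0.21 in males and 0.12 in females (adjusted limma p 0.0981). The 5 probes of the sodium-proton exchangers of family 9, of which 2 are for SLC9A7, had means from 0.038 to 0.13. Their median was 0.096 in males and 0.0085 in females. SLC9A9, an endosomal member, had 0.00 in males and 0.27 in females. The carboxylate carriers had a median of -0.012. SLC16A9, a carrier of the monocarboxylate family, had 0.06 and 0.29 (adjusted limma p 0.151), and SLC16A14 had -0.21 in males and 0.11 in females.

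The rule also takes 7 probes for proteins that are no carriers themselves but are named after a carrier they bind or neighbour. SLC9A3R1, a scaffold protein that anchors transporters to the cytoskeleton, had levels of 11.79 and 11.98 in trained males and females, against 12.22 and 12.17 in the dark-reared ones. Its ratios were -0.43 and -0.18, with a mean of -0.31 ± 0.18 (SD, n = 2 arrays; adjusted limma p 0.0386), but -0.027 in the processed signals, where the arrays differed in sign. The related scaffold SLC9A3R2 had 3 probes, of which 1 was higher, with levels of 6.85 and 6.79 in trained males and females, against 6.57 and 6.58 in the dark-reared ones and a mean of 0.24 (adjusted limma p 0.0331), or 0.47 in the processed signals. The other SLC9A3R2 probes had means of -0.016 and -0.00019 and did not pass. By the array's galGal2 coordinates the probe with the mean of -0.00019 runs along the opposite strand to the others. SLC7A6OS had -0.31 in males and 0.02 in females.

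Of 13 genes with several tested probes, 7 had probes of both signs and 6 had probes of 1 sign. Only SLC19A3, SLC27A4, SLC39A12 and SLC9A3R2 had any probe past the test, and for 0 of the 13 did every probe pass. For SLC19A3 the probe past the test was a SLC19A3-like one, and the probe annotated as SLC19A3 did not pass. A call for a gene with several probes here is thus a call for 1 of its probes. Genes of a family that lie side by side on galGal2 did not share a sign throughout. On chromosome 1, SLC38A2 had -0.10 beside SLC38A4 with 0.19 and -0.085. On chromosome 13, the organic cation and carnitine transporters SLC22A4 and SLC22A5 shared a sign, with means of -0.072 and -0.028. SLC22A5 itself had -0.14 in males and 0.08 in females. None of these probes on either chromosome passed.

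**Figure D4:**
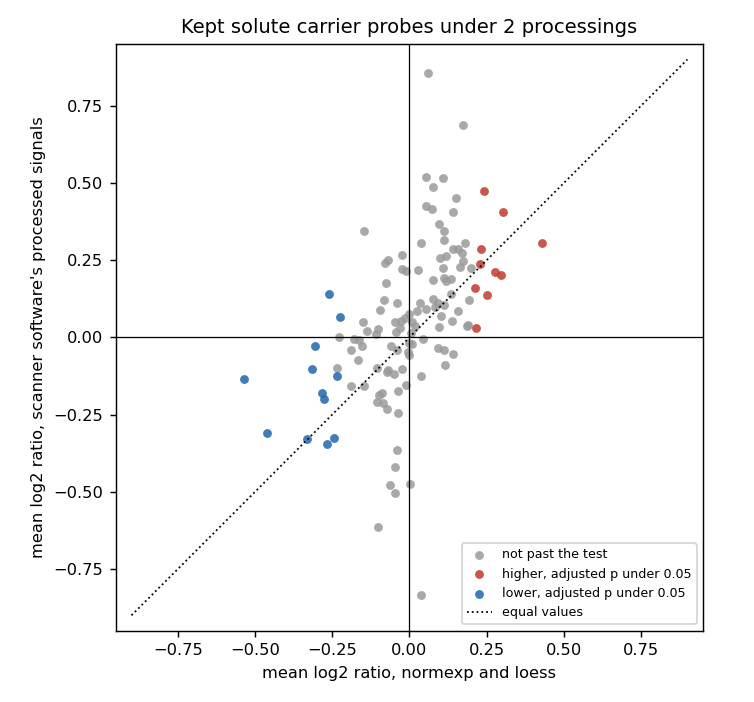
Mean log2 ratio, trained over dark-reared, of each tested solute carrier probe after normexp background correction and loess (horizontal) and in the scanner software's processed signals (vertical). Points are coloured by the call of the horizontal values, and the dotted line marks equal values. Pearson's r across the 129 probes is 0.52, and SLC43A3 (-0.26 and 0.14) and SLC39A9 (-0.22 and 0.065) are the called probes with opposite signs.

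Other transport genes were set beside the carriers: sodium and proton pumps, genes of the ABC family, aquaporins and proteins that regulate or chaperone carriers. The list also held UCP3 and CTNS, which the rule for carriers did not take. Of 39 probes tested, 5 were higher, 4 were lower and 30 did not pass, with a median of -0.023. Of all probes tested on the array 17.5% passed, with 6.31% higher and 11.2% lower. The higher ones were probes of ATP6V0D1 at 0.31, SGK1 at 0.29, ATP6V1E1 and ATP6V1A at 0.23 and AQP4 at 0.21. A second probe of ATP6V1E1 had -0.018 and a second probe of ATP6V1A had -0.034, and neither passed. The lower ones were ATP6V1G1 at -0.46, ABCC8 at -0.38, ABCC4 at -0.37 and ATP6V1B2 at -0.22. In the processed signals these had -0.45, -0.20, -0.18 and -0.092 in that order. Among the higher probes ATP6V0D1 had 0.43 and SGK1 0.18 there, but ATP6V1A had 0.044, ATP6V1E1 0.027 and AQP4 0.015. Probes for subunits of the V-ATPase, the proton pump that energizes vesicle loading, thus passed in both directions, with 3 higher and 2 lower. Of the 3 higher ones, 2 are from genes whose second probe did not pass. The tested probes of ATP6V0A1, ATP6V0B, ATP6V1C1 and ATP6V1D did not pass either. Most V-ATPase probes were bright, and in the highest range of levels 31.2% of all probes tested passed.

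Some markers of brain cell types also passed, and their part in the carrier results was not tested. Of all probes tested 6.31% were higher and 11.2% were lower, and in the highest range of levels 31.2% passed. Of 6 astrocyte markers 4 were lower, 1 was higher and 1 did not pass, with a median of -0.23. In the processed signals the lower ones had -0.36 (HES5), -0.12 (GJA1), -0.021 (GLUL) and 0.10 (S100B), and the higher AQP4 had 0.015. The summed level of the astrocyte markers, on the log2 scale, was 15.29 in trained males and 15.45 in trained females, against 15.59 and 15.56 in dark-reared males and females. Such a sum adds intensities, so the brightest probes of a list weigh most. Among the astrocyte markers FABP7, the 1 that did not pass, had -0.60 in males and 0.15 in females. Of 9 neuronal probes 3 were lower, all of NEFL or STMN2, and 6 did not pass, with a median of -0.0065. Those 6 were MAP2 at 0.17, SYT1 at 0.11, SYP at 0.087, NEFM at 0.022, SNAP25 at -0.0065 and ELAVL4 at -0.043. In the processed signals NEFL had -0.076 and the STMN2 probes had -0.26 and 0.012. With the STMN2 probes the brightest, the neuronal probes summed to 16.79 and 16.73 in trained males and females, against 16.93 and 16.96 in the dark-reared ones. Of 4 oligodendrocyte markers 1 was higher (CNP at 0.26), 1 was lower (MBP at -0.62) and 2 did not pass, with a median of 0.11. They summed to 14.98 and 15.29 in trained males and females, against 15.60 in both dark-reared pools. This sum mostly follows MBP, the brightest, with 14.52 and 14.86 in trained males and females, against 15.32 and 15.29 in the dark-reared ones. Of 4 red cell probes HBBA was higher (0.41), CA2 and EPB42 were lower (-0.40 and -0.27) and 1 did not pass, with a median of -0.052. With HBBA the brightest, the red cell probes summed to 14.24 and 14.28 in trained males and females, against 13.90 and 14.12 in the dark-reared ones. Of 12 probes for endothelial and mural genes 3 were lower (VWF at -0.71, PECAM1 at -0.35 and CLDN5 at -0.23) and 9 did not pass. Those 9 include other probes of VWF, at -0.080 and -0.060, and of PECAM1, at -0.016 and 0.22. In the processed signals the lower ones had -0.40, -0.27 and 0.053 in that order. Summed endothelial and mural levels were 12.26 and 12.30 in trained males and females, against 12.34 and 12.39 in the dark-reared ones. The choroid plexus marker TTR was not well above background in any pool. Of 4 choroid plexus probes tested PRLR was higher (0.32) and 3 did not pass, with a median of -0.015. Those 3 were AQP1 at -0.21, KL at -0.18 and FOLR1 at 0.15. With AQP1 the brightest, the choroid plexus probes summed to 11.43 and 11.73 in trained males and females, against 11.67 and 11.80 in the dark-reared ones. Of 6 microglial probes 1 was higher (CD74 at 0.23) and 5 did not pass, with a median of -0.023. With CD74 the brightest, the microglial probes summed to 12.51 and 12.41 in trained males and females, against 12.33 and 12.18 in the dark-reared ones.

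The sexes were also compared within each condition, without a test, since each has 1 pool. Both male pools were on 1 array and both female pools on the other, so sex cannot be told apart from array. An array effect can enter both conditions alike, so the same direction in both is no repeat. Over the 120 probes well above background in all pools, the median difference of male minus female levels was -0.029 in the trained pools and -0.012 in the dark-reared pools, and 0 probes reached 1.5-fold in either. Among the probes with the largest differences of the same direction in both conditions, chosen after the values were seen, SLC10A4-like had -0.21 and -0.25, and SLC25A12-like had -0.20 and -0.17.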

How the data were processed

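The members and gene lists were chosen with earlier results of these data known. The deposited scanner tables hold mean spot intensity and median background intensity for each channel, not normalized, per the file headers, and the deposited series table holds log2 ratios equal to the processed green over red signals. The file headers name Agilent Feature Extraction 9.5.3.1, whereas the submitters' processing notes name 8.5.1.1. Coordinates are galGal2, and names come from the array or from RefSeq, through which 134 of the 161 probes matched.

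Mean signals were corrected with normexp (offset 50) and normalized by loess in limma 3.58.1 (R 4.3.3, data.table version 1.17.8). Outlier flags removed 25 probes. Of the rest, those called well above background by the software in either channel, on each array, were tested. The fit (lmFit, eBayes, prior degrees of freedom 5.06) used both arrays, and Benjamini-Hochberg adjustment covered 27372 probes. Levels came from loess and Aquantile. Tables and plots were made in Python 3.11.15 with pandas 2.3.3 and matplotlib 3.10.9. The limma fit was tested on simulated ratios whose variances were drawn from its own prior. Background correction and loess were run on real spots made brighter in green, to check the direction only.

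Genes were named by rule: in each substrate class up to 3 probes in each direction past adjusted p 0.05 and the largest that did not pass, genes with several probes of which any passed, the 5 largest differences between arrays, and a fixed list. SLC9A3R1 was moved from the other transport genes because it is a member. SLC6A3, SLC2A3, SLC17A7, SLC32A1, SLC12A5 and SLC4A1 are not analysed here. SLC16A1, SLC6A4 and the SLC12A2-like probe were not well above background. Some results are not reported here.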

Additional observations from a re-analysis of the deposited data

Results flagged for a closer look

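Among the 46 probes named and tested, 5 had ratios of opposite sign on the male and the female array. SLC7A6OS had a male minus female difference of -0.33, SLC16A14 of -0.32 and SLC17A6 of 0.25. The second SLC19A3-like probe had a difference of 0.26, and a probe of SLC9A3R2 had -0.034. With 1 array per sex none of these differences was tested.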

How the results depend on the processing

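The 10 higher and 12 lower probes became 1 and 2 with offset 16, 0 and 0 with the processed signals and with the series table, and 8 and 77 with median centring. The 77 are 59.7% of the carriers, where 60.3% of all probes tested were lower in that setting. They became 10 and 12 with both channels required, 12 and 14 without a filter, and 11 and 14 with an intensity trend. Each array alone had 0 probes at 1.5-fold in either direction. The median of 0.0020 became 0.016 with offset 16, 0.050 with the processed signals and the series table, -0.35 with median centring and -0.00019 without a filter, and was 0.014 to 0.015 on single arrays. In the processed signals and the series table SLC39A9 had 0.065 and SLC43A3 had 0.14. Of 24 named probes that had not passed, 9 changed sign there: SLC11A2-like (0.35), SLC16A14 (0.049), SLC17A6 (-0.0062), the second SLC19A3-like (-0.090), SLC25A26 (0.0021), SLC25A4 (-0.052), SLC7A5 (0.021) and SLC9A3R2 (0.064 and 0.076). Median centring set the median of all unflagged array probes to 0, not that of the probes tested. The probes tested then had a median of -0.34, so a sign below 0 there includes this shared shift. The values fell below 0 and below that median for SLC16A9 (-0.41), SLC17A6 (-0.46), SLC23A2 (-0.39), SLC25A20 (-0.36), SLC25A28 (-0.54), SLC25A4 (-0.63), SLC27A1 (-0.62), SLC27A4 (-0.36), SLC35E3 (-0.35), SLC37A2 (-0.44) and the SLC39A12 probe that passed (-0.36). They fell below 0 but stayed above that median for SLC38A4 (-0.31), the second SLC39A12 probe (-0.29), SLC39A3 (-0.034) and SLCO1C1 (-0.033). The cause was not tested. All 22 called probes passed with both channels required, without a filter and with a trend. Those settings keep the same ratios and change only the probes tested or the variance prior, so they do not check how the ratios were made. The reported fit is itself paired, since each ratio sets 2 pools of 1 sex against each other within an array. No paired analysis was possible beyond it, because a further replicate block would leave no residual degree of freedom. Dim probes limit the data, since 32 of 161 were not tested.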
